A study of Mus musculus with 14 samples.

Results

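The comparison is between 2 kinds of clonal mouse embryonic stem cell line, and takes in 11 of the 14 clones of the series. The lines were chosen by genotype: 5 clones with the enhancer Chen2008-25 deleted on both chromosomes (genotype KO, -/-; clones B4, C4, G2, H2 and H4) and 6 clones with the enhancer Chen2008-1 deleted on 1 chromosome (genotype +/-; clones B8, D3, E3, E7, G3 and H7). All 14 clones come from 1 female F1 line of the 129 and Castaneus (CAST) mouse strains, so an autosomal gene has a 129 and a CAST copy whose RNA can be told apart where the strains differ in sequence. They were cultured in a serum-free medium with leukaemia inhibitory factor, the MEK inhibitor PD0325901 and the GSK3 inhibitor CHIR99021, on gelatin and laminin. The genotype table does not say which sign belongs to which strain; here the first sign stands for 129 and the second for CAST, so the +/- clones lack the enhancer on CAST. The 3 clones not compared here are E6 (Chen2008-25, -/+) and D2 and D10 (Chen2008-1, -/+), and every clone carries a deletion at 1 of the 2 enhancers. The study asked which effects of an enhancer stay on the chromosome that carries the deletion and which reach both copies. The RNA of a panel of genes was enriched with probes (hybrid selection) before sequencing.

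An enhancer is a stretch of DNA that raises transcription of genes, mostly on the same chromosome, and its deletion is known to act most strongly on a few neighbours. Embryonic stem cells kept with both inhibitors are held in a naive pluripotent state, in which genes of epithelia, trophoblast and other lineages are normally low. A clonal line grows from a single edited cell, and lines of 1 parent can come to differ in the RNA of many genes away from the edit.

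Away from the deleted loci the enhancer and the clone set cannot be told apart. The set also goes with a number in the column headers whose meaning is not stated, while the selection batch and the probe set are listed as the same for all clones. Depth was 355677 to 1331965 allelic reads in the +/- clones and 239430 to 891466 in the KO clones. No pair of clones of a genotype agreed within the sampling noise of independent reads (chi-square per degree of freedom at least 4.27), though these reads are not independent. Nothing states separate cultures beyond the clones, so the p-values reflect only how clones from 1 parent vary. The first principal component separated the groups and held 59.8% of the variance, H7 stood apart on the second and G2 on the third. The panel allows only a partial check of cell identity: of the pluripotency and germline markers it tests Tex19.1 and Tex19.2, of the trophoblast markers Krt8 and Krt18, and it has 0 of 18 primitive endoderm and 0 of 14 feeder fibroblast markers.

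The promoters of the leading genes are shown because they are the start regions of the 2 genes of smallest p in each direction among those in the promoter table, which has no entry for Utp6. Each runs from 250 bases before to 50 bases after the start, from RefSeq on GRCm38.p6, plus strand; capitals mark GGGCGG (the letters of a GC box) or CACGTG (an E box), searched on both strands. Slc16a3 and B3gnt7 were lower in KO, Hnrnph1 and Acacb were higher. They lie at chr11:120948817-120949116 (Slc16a3), chr1:86302971-86303270 (B3gnt7), chr11:50376740-50377039 (Hnrnph1, 1 of 5 listed starts) and chr5:114165268-114165567 (Acacb).
Slc16a3: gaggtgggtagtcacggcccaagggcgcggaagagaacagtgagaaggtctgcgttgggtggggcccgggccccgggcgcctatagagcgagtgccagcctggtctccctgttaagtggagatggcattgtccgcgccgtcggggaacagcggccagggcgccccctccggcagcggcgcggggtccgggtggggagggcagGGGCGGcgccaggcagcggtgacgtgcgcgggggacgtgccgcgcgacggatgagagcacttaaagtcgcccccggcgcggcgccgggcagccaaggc
B3gnt7: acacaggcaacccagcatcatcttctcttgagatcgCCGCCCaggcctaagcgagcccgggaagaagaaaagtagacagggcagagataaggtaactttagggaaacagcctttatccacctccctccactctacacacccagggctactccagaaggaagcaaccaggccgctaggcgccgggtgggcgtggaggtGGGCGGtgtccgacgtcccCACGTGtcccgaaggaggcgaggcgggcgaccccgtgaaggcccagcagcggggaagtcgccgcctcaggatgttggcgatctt
Hnrnph1: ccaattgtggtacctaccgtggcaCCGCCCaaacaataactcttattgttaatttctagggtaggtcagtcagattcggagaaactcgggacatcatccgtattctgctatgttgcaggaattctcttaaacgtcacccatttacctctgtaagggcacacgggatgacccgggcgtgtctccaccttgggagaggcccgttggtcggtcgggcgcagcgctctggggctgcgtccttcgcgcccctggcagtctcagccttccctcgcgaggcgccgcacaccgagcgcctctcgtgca
Acacb: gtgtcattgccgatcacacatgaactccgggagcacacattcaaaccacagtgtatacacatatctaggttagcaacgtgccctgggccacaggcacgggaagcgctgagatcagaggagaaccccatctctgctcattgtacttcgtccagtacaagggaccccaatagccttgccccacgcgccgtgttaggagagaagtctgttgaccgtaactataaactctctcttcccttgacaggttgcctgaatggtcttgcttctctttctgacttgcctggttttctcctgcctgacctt
The GC box letters are in 35.9% and the E box letters in 7.24% of the 27025 RefSeq promoters of this length. Among the 288 of 449 tested genes with a promoter in the table the shares are 62.2% and 11.8%, so the letters are common in the panel; with under 80% covered, a comparison of higher with lower genes is void.

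Most of the panel differed between the groups. Of 449 genes with a mean of at least 10 reads per clone, 265 (59.0%) passed an adjusted p of 0.05 in edgeR's quasi-likelihood test of the summed 129 and CAST counts, 124 higher (27.6%) and 141 lower (31.4%) in the KO clones. With upper-quartile scaling, which moves the median of all genes from -0.01 to 0.10 on the log2 scale, the split was 155 higher and 113 lower. In such bulk samples fewer cells of a type and less RNA per cell cannot be told apart. Most differences were modest: the median called gene differed 1.5-fold when higher and 1.51-fold when lower, and 68 genes (15.1%) were called and differed at least 2-fold. The spread within a group was smaller, with a median SD of 0.20 on the log2 scale. The 2 groups of clones did not overlap at all for 165 genes (36.7%), 75 higher and 90 lower. Calls were more frequent at higher read numbers, from 43.4% of the 113 genes with the lowest levels to 70.5% of the 112 with the highest, and the median absolute log2 difference of the called genes was 1.23 in the former and 0.39 in the latter. Without H7 and G2, 278 of 454 genes were called, 127 higher and 151 lower.

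The direction of the difference went with base composition and length of the transcript. Genes that were higher in KO had a median GC content of 47.4% and a median length of 4.26 kb in the longest annotated transcript, against 55.7% and 2.68 kb for genes that were lower and 53.1% and 2.82 kb for genes not called. Of the 108 genes with the lowest GC content 62 were higher and 12 lower, and of the 108 with the highest 11 were higher and 52 lower. The same pattern was found clone by clone. The median deviation (from a gene's mean over clones) of these low-GC genes minus that of the high-GC genes was 0.21 to 0.46 (log2) in the 5 KO clones and 0.43 in E6, and -0.31 to -0.14 in the 6 +/- clones, -0.17 in D2 and -0.31 in D10. This value does not overlap between the clone sets, and its part in the differences of single genes was not tested. A fit with offsets per clone for GC content and length, which removes any difference that goes with these properties whatever its source, called 229 of 430 genes, 129 higher and 100 lower. Of the 255 called genes with a GC and length value, 161 were called in the same direction with these offsets, 81 higher and 80 lower, and 6 in the other direction.

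**Figure D1:**
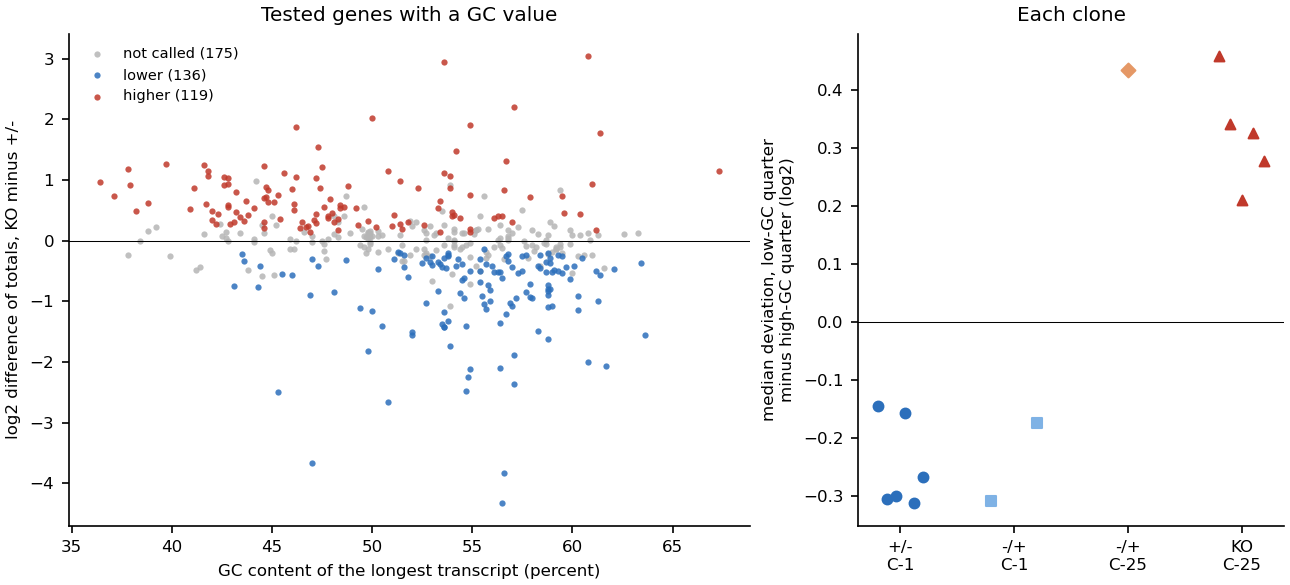
Left, the log2 difference of totals (KO Chen2008-25 minus +/- Chen2008-1) against the GC content of the longest transcript, 1 point a gene, red called higher, blue called lower, grey not called. Right, the median log2 deviation of the 108 genes of lowest GC content minus that of the 108 of highest, 1 point a clone; all 6 Chen2008-25 (C-25) clones lie above 0 and all 8 Chen2008-1 (C-1) clones below it.

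The most clearly lower gene was Slc16a3, which encodes the monocarboxylate transporter that exports lactate. Its level (CPM, allelic reads per 1000000 after TMM scaling) was 291 in B4, 250 in C4, 401 in G2, 249 in H2 and 225 in H4, against a lowest of 2610, a median of 3790 and a highest of 5130 in the +/- clones. The groups were far apart, and the log2 difference was -3.83 (SE 0.19, adjusted p = 1.45e-09), 14.2-fold lower in KO. Cmklr1, the receptor for the chemoattractant chemerin, had 397, 425, 521, 210 and 325 CPM in B4, C4, G2, H2 and H4, against 1072, 2119 and 2610 as the lowest, median and highest +/- value. Here too no KO clone reached the lowest +/- clone, H7 (log2 -2.48, SE 0.23, adjusted p = 6.32e-07). Krt8, a keratin of simple epithelia, had 177, 218, 349, 304 and 244 CPM in the KO clones and 969, 1071 and 2093 CPM as the lowest, median and highest +/- value (log2 -2.37, SE 0.23, adjusted p = 1.19e-06). Its +/- values spread more than 2-fold, with D3 and H7 high, yet the groups did not overlap.

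Other clearly separated genes differed less. Pycr1, an enzyme of proline synthesis, had 691, 726, 805, 673 and 606 CPM in B4, C4, G2, H2 and H4 and 1480, 1771 and 2035 as the lowest, median and highest +/- value (log2 -1.33, SE 0.10, adjusted p = 9.62e-08). Cdkn1b, the cyclin-dependent kinase inhibitor p27, had 2376, 2530, 2490, 2075 and 2314 CPM in the KO clones against 3435, 3883 and 4286 (log2 -0.74, SE 0.07, adjusted p = 8.26e-07). Both genes were low in every KO clone. Amhr2, the receptor of anti-Mullerian hormone (3.06-fold lower), Hebp1, a heme-binding protein (2.64-fold lower), Bhlhe40, a circadian and hypoxia-linked repressor (2.16-fold lower) and Nptx1, a neuronal pentraxin (4.34-fold lower), showed the same separation. With the GC and length offsets all 9 were still called lower, with log2 differences from -3.53 (Slc16a3) to -1.04 (Pycr1), and Krt8 at -1.92 and Cdkn1b at -1.10.

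Among the higher genes the smallest p belonged to Utp6, a component of the complex that processes ribosomal RNA. It had 3515, 3598, 3588, 3773 and 3560 CPM in B4, C4, G2, H2 and H4, against 1999, 2185 and 2376 as the lowest, median and highest +/- value. The KO clones lay within a narrow band above all +/- clones (log2 0.72, SE 0.05, adjusted p = 1.02e-07). Hnrnph1, a splicing regulator, had 3988, 3978, 3554, 3602 and 3760 CPM against 2090, 2271 and 2440 (log2 0.73, SE 0.06, adjusted p = 2.16e-07), and 0.23 with the offsets (adjusted p = 0.0169). Acacb, the acetyl-CoA carboxylase that makes malonyl-CoA at mitochondria, had 1875, 1940, 1740, 1607 and 1996 CPM against 565, 734 and 887 (log2 1.31, SE 0.11, adjusted p = 2.27e-07). With the offsets its difference was 1.43. Atad5, which unloads the sliding clamp from replicated DNA, had 1789, 1682, 1391, 1590 and 1405 CPM against 643, 738 and 919 (log2 1.06, SE 0.10, adjusted p = 9.49e-07; 0.55 with the offsets). For Acacb and Atad5 every KO clone was above every +/- clone.

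**Figure D2:**
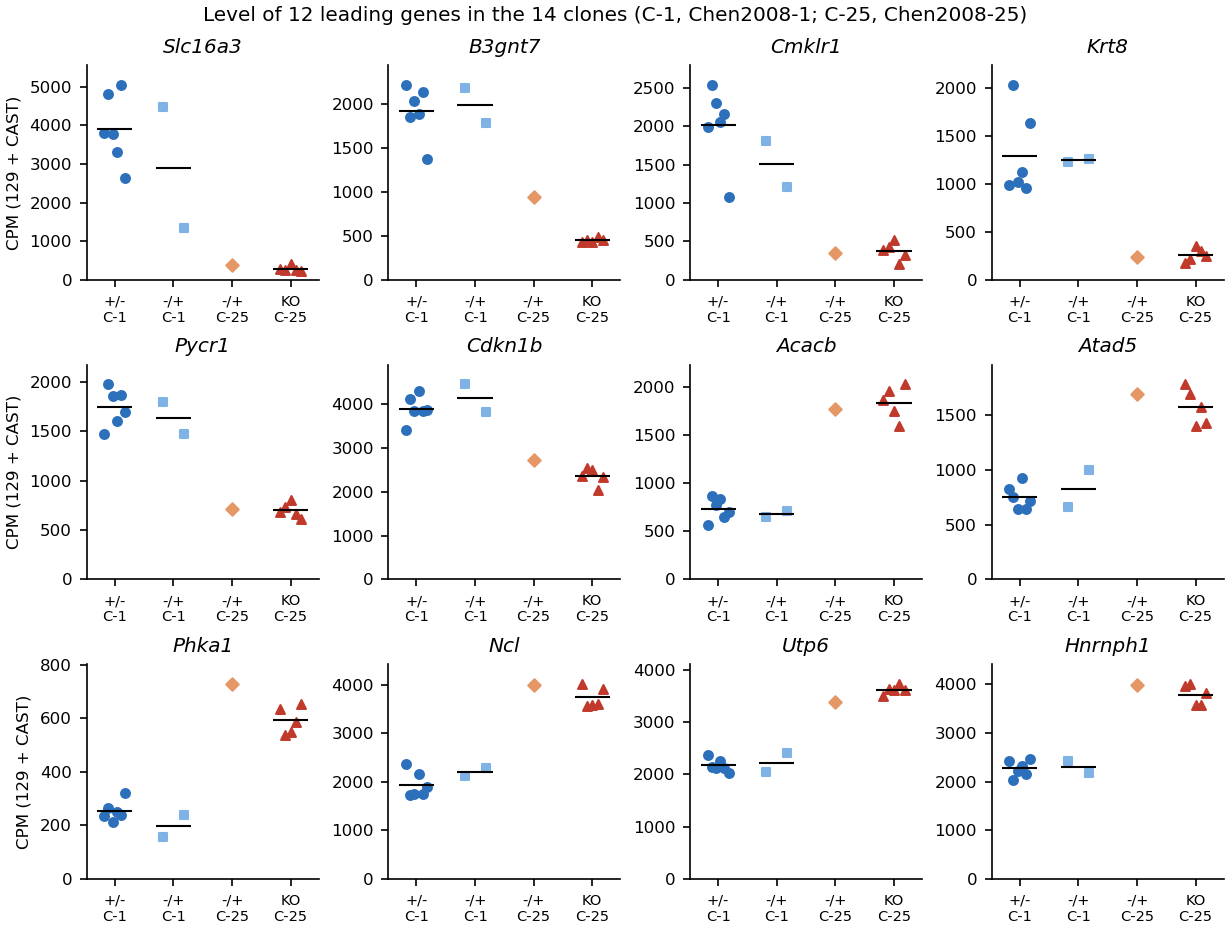
Level (CPM on a linear axis from 0, sum of the 129 and CAST counts) of 12 leading genes in all 14 clones, scaled together; points are clones and lines are means of groups with 2 or more clones. The Chen2008-25 (C-25) clones, E6 included, lie apart from the +/- Chen2008-1 (C-1) clones in each panel, and for B3gnt7 E6 lies between the KO clones and the Chen2008-1 clones.

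Some genes with few reads also differed by large folds. Aatk, an apoptosis-associated kinase, had 41.4, 46.8, 25.8, 58.1 and 93.7 CPM in B4, C4, G2, H2 and H4 and between 0 and 14.9 CPM in the +/- clones (log2 3.04, SE 0.53). Gm9112, a predicted gene on the X chromosome, had 168 to 629 CPM in KO against 35.1 to 89.4 CPM (log2 2.95, SE 0.33). Both were high in every KO clone. In the other direction, Lypd2, a Ly6-family gene, was listed at 0 in 4 KO clones and at 3.23 CPM in H2, against 11.9 to 32.7 CPM in the +/- clones. Aatk and Lypd2 passed the read filter through the group in which they are high, so their separation is no test. Tnnt2, the cardiac troponin T gene, had 18 to 68.9 CPM in KO and 53.6 to 367 CPM in the +/- clones (log2 -2.66, SE 0.44), so its groups overlapped. St8sia2, a sialyltransferase, was higher by 2.02 (SE 0.48) with H2 at 332 CPM and the other KO clones at 34.5 to 144 CPM. Without H2 the value was 1.27.

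Genes of energy metabolism were more often lower, as they were under each other scaling of the libraries, but not with the GC and length offsets. Of 14 tested genes of glycolysis, lactate and mitochondrial energy metabolism, 8 were lower and 3 higher (median log2 -0.24, against -0.01 over all genes). Over all genes 31.4% were lower and 27.6% higher. Beside Slc16a3 the lower ones included Cyb5r3, a cytochrome b5 reductase (log2 -0.50, SE 0.06), and Mrpl12, a mitochondrial ribosomal protein (-0.51, SE 0.07). The X-linked Phka1, a regulatory subunit of phosphorylase kinase, was higher (1.22, SE 0.11). The list's median GC content is 56.4% against 53.4% over all genes. With the offsets 3 were lower and 4 higher, and neither Cyb5r3 (-0.12) nor Mrpl12 (-0.13) was called. All 4 called solute carriers of 8 were lower, among them Slc39a4, a zinc importer (-1.03, SE 0.16), and Slc30a9 (-0.42, SE 0.07), and 3 were lower and 1 higher with the offsets.

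Amino acid and lipid genes included calls in both directions, where 27.6% of all genes were higher and 31.4% lower. Of 6 amino acid and nucleotide genes 3 were lower, Pycr1, its relative Pycrl (log2 -0.53, SE 0.06) and Oplah, an oxoprolinase (-0.73, SE 0.15). Csad, which makes taurine precursors, was higher (0.54, SE 0.07). Of 7 lipid and sterol genes 3 were higher and 3 lower. Fatty acid synthase Fasn had 10656 to 12014 CPM in KO and 5320 to 8173 CPM in the +/- clones (log2 0.72, SE 0.10), so Fasn and Acacb were both higher. Tspo, a mitochondrial cholesterol-binding protein, was lower (-0.90, SE 0.14). With the offsets Fasn (0.81) and Tspo (-0.66) were called, while only 1 of the 7 lipid genes was lower, and of the amino acid genes 1 was higher and 3 lower.

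Genes of epithelia, adhesion and matrix were mostly lower. All 12 tested, B3gnt7 among them, were called, 9 lower and 3 higher, with a median log2 difference of -1.14. Over all genes 59.0% were called and 31.4% were lower. The list was written with earlier results of these data known, so its count is a description and no test. Krt8 and Krt18 form the filament pair of simple epithelia. Krt18 had 13.4, 21.6, 25.8, 36.6 and 18.7 CPM in B4, C4, G2, H2 and H4, against 44.2, 54.1 and 95.6 as the lowest, median and highest +/- value (log2 -1.35, SE 0.32, adjusted p = 0.00198), and on the CAST copy alone it was not lower (0.21, not called). Tgm2, a transglutaminase that crosslinks proteins, was lower (log2 -1.88, SE 0.27), Emp1, an epithelial membrane protein, was at -2.49 (SE 0.38) and Selplg, a ligand of selectins, at -1.81 (SE 0.43). Gprc5a, an orphan receptor of epithelia, was lower by less (-0.65, SE 0.09). Scube1, a secreted glycoprotein, was higher (2.20, SE 0.47) with 17.2 to 102 CPM against 4.09 to 17.9 CPM. Selplg (mean 14.4 CPM in KO) and Scube1 (mean 10.9 CPM in the +/- clones) are near the read filter where they are low. Both count among the 12, but they passed the filter mainly through the group in which they are high, so their separation is no test. The list's median GC content is 56.4%, and with the offsets 8 were lower and 3 higher (median -0.74). Krt8 and Krt18 are also the only trophoblast markers measured, and both were lower. Processed copies of keratin genes elsewhere in the genome could share reads with them.

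Zinc-finger genes, grouped by symbol, were higher or not called. Of 25 tested, 17 were higher and 0 lower (median log2 0.33), where 27.6% of all genes were higher. Of the 25, 11 lie in the locus of Trim28. In a fit without the genes of the deletion loci 10 of 14 were higher and 0 lower, where 126 of 413 genes were higher. Zfp354c, Zfp879, Zfp454, Zfp2 and Zfp354a of these 14 lie in the chromosome 11 locus from 3010026O09Rik to Ppp2ca. Among all 25 the 4 of smallest p were Zscan18 (log2 1.15, SE 0.14), Zfp329 (1.26, SE 0.16), Zfp454 (0.86, SE 0.14) and Zfp551 (0.90, SE 0.18). Zfp329 had 156 to 219 CPM in KO and 63.9 to 89.4 CPM in the +/- clones, and Zscan18 had 591 to 834 CPM against 249 to 375 CPM. Many such proteins bind DNA and recruit the co-repressor Trim28. The zinc-finger transcripts have a median GC content of 48.9% and a median length of 4.01 kb. With the offsets 12 of the 25 were higher and 0 lower (median 0.27), Zscan18 at 1.19 and Zfp329 at 0.71. Without H7 and G2 the split was 15 higher and 1 lower.

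Genes of RNA processing and ribosome assembly were called in both directions, with a share of higher genes near that of all genes, 27.6%. Of 20 tested genes of splicing, processing and decay 7 were higher and 3 lower (median log2 0.11). Beside Hnrnph1, Ythdf2, a reader of methylated adenosine in RNA, was higher (0.61, SE 0.14), while Trnau1ap (-0.60, SE 0.06) and the helicase Ddx47 (-0.42, SE 0.06) were lower. Of 15 genes of ribosome assembly and translation 5 were higher and 3 lower. Ncl, the nucleolar protein nucleolin, had 4047, 3550, 3575, 3644 and 3863 CPM in B4, C4, G2, H2 and H4 and 1745, 1833 and 2386 CPM as the lowest, median and highest +/- value (log2 0.93, SE 0.08, adjusted p = 4.40e-07). All KO clones were well above the +/- clones, and the difference was 0.41 with the offsets. With the offsets 8 of the RNA-processing genes were higher and 4 lower, and 9 of the ribosome genes were higher and 1 lower, where 129 of 430 genes were higher.

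Chromatin regulators split evenly, where 27.6% of all genes were higher and 31.4% lower. Of 9 tested, Trim28 among them, 4 were higher and 4 lower. Suz12, a core subunit of Polycomb repressive complex 2, had 145, 146, 86.1, 128 and 125 CPM in the KO clones and 29.8, 54.3 and 71.3 CPM as the lowest, median and highest +/- value (log2 1.25, SE 0.23, adjusted p = 0.00024). No KO clone was as low as a +/- clone. The remodeller Chd2 (0.68, SE 0.08) and the coactivator Tcf20 (0.53, SE 0.07) were higher, and Bahcc1, a chromatin reader, was lower (-0.91, SE 0.13). Cbx5, the heterochromatin protein HP1 alpha, stands outside the list and was higher (0.92, SE 0.10). With the offsets 6 of the 9 were higher and 2 lower, Suz12 at 0.88, Chd2 at 0.33 and Cbx5 at 0.38. Chd2 shares 2628 exonic bases on the same strand with 1810026B05Rik, so their reads cannot be told apart there.

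Genes of DNA replication, the cell cycle and transcription factors were called in both directions, where 27.6% of all genes were higher and 31.4% lower. Of 9 replication and repair genes 3 were lower, Tonsl (log2 -0.50, SE 0.06), the ligase Lig1 (-0.28, SE 0.06) and Parp10 (-0.93, SE 0.20), and Atad5 alone was higher. With the offsets 3 were higher and 2 lower, and Lig1 was not called (-0.02). Of 13 cell cycle and apoptosis genes 3 were higher, Espl1, the separase (0.38, SE 0.06), among them, and 4 were lower, among them Anapc11 (-0.35, SE 0.07; -0.13 and not called with the offsets). With the offsets 5 of 12 were higher and 1 lower. Myc, the growth regulator, had 1241, 1419, 1301, 724 and 956 CPM in B4, C4, G2, H2 and H4 against 1650, 2006 and 2286 (log2 -0.83, SE 0.15, adjusted p = 0.000217; -0.53 with the offsets). Myc was thus lower in each KO clone, most in H2. Of 16 other transcription factors 5 were higher, led by Atf7 (1.54, SE 0.21), and 4 lower, among them the heat shock factor Hsf1 (-0.38, SE 0.06; -0.12 and not called with the offsets). With the offsets 4 were higher and 4 lower.

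Signalling, cytoskeletal and vesicle genes were split as well, and their balance changed with the scaling. Among all genes 27.6% were higher and 31.4% lower. With upper-quartile scaling 155 of 449 were higher and 113 lower, and with the offsets 129 of 430 were higher and 100 lower. Of 16 genes of Wnt, Notch, MAPK and growth factor signalling 5 were higher and 6 lower. The Wnt co-receptor Lrp6 was higher (log2 0.85, SE 0.11), and the kinase Mapk15 was lower (-2.07, SE 0.34). With a mean of 17.0 CPM in KO, Mapk15 is near the read filter there, so its separation is no test. Of 12 receptors and ligands 5 were lower and 3 higher, against 4 and 3 with the offsets. Of 27 genes of the cytoskeleton and small GTPases 7 were lower and 5 higher, the GTPase Rac3 (-0.99, SE 0.10) and Baiap2, an adaptor of membrane protrusions (-0.85, SE 0.09), among the lower; with upper-quartile scaling 10 were higher and 5 lower, and with the offsets 7 and 6. Of 16 lysosome, autophagy and traffic genes 6 were lower, led by Hps4 of a complex that makes lysosome-related organelles (-0.99, SE 0.09), and Rab11fip4 was 1 of 2 that were higher (1.07, SE 0.13). With the offsets 6 of 15 lysosome genes were higher and 3 lower, and of the signalling genes 5 were higher and 3 lower. In the ubiquitin and protein folding group 4 of 13 were higher, among them the chaperone Canx (0.28, SE 0.06), and 3 lower, against 5 and 0 with the offsets, where Canx was not called (-0.09).

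Lineage-restricted and immune genes also went both ways, where 27.6% of all genes were higher and 31.4% lower. Of 12 neuronal and lineage-restricted genes 4 were lower, Nptx1, Bahcc1, Wscd2 (log2 -1.55, SE 0.28) and Svop (-0.71, SE 0.20), and Snhg11 was higher (0.63, SE 0.20). Neither Svop (-0.35) nor Snhg11 (0.26) was called with the offsets. Of 15 genes of innate immunity 3 were higher, led by Themis2 (1.48, SE 0.23), and 4 lower, led by Apol6 (-1.73, SE 0.29), against 3 and 3 with the offsets. Both germline-linked genes of the panel were higher. Tex19.1 had 4827 to 5875 CPM in KO and 3678 to 4800 CPM in the +/- clones (log2 0.25, SE 0.08, adjusted p = 0.01), and Tex19.2 had 325 to 472 against 236 to 364 CPM (0.40, SE 0.13, adjusted p = 0.0164; not called at equal depth, 0.35). These are close paralogs that could share reads. Of 18 linc transcripts 4 were higher and 4 lower, linc1293 (1.39, SE 0.20) leading.

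**Figure D3:**
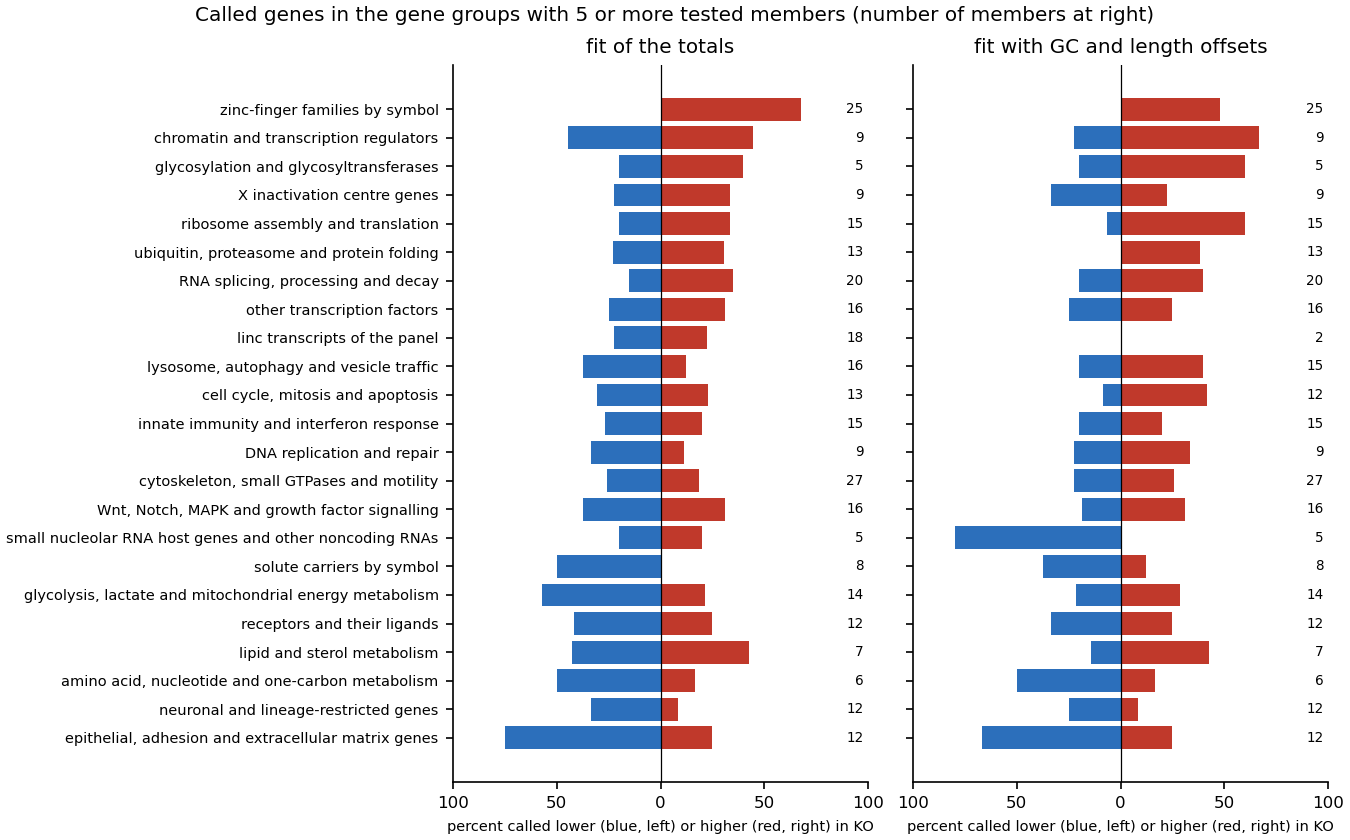
Percent of the tested members of each gene group called lower (blue, to the left) or higher (red, to the right) in KO, for groups with 5 or more members, ordered by their median difference; left, fit of the totals, right, fit with GC and length offsets. Numbers at the right are members with a value. The epithelial group is mostly lower and the zinc-finger group has no lower gene in either panel, while the energy metabolism and lysosome groups change their balance.

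Where the enhancers lie was not analysed here, and the deletion loci are taken as those of the genes that differed by dose or by copy in earlier results of these data, so B3gnt7, Trim28 and Zbtb45 are no independent evidence of where the enhancers act. B3gnt7, a glycosyltransferase that extends keratan sulfate chains, had 431, 447, 431, 499 and 443 CPM in B4, C4, G2, H2 and H4, against 1367, 1970 and 2230 as the lowest, median and highest +/- value. The KO clones kept 23.3% of the +/- level (log2 -2.10, SE 0.11, adjusted p = 2.56e-09). E6, with 1 deleted copy, had 943 CPM and lay between. In the fit of all clones KO minus E6 was -1.06 (log2, adjusted p = 0.00947), and B3gnt7 was the only gene called within Chen2008-25 of 448 tested (0.223%; 24 at an unadjusted p under 0.05; 1 with DESeq2). Both copies were lower: log2 -2.0 (SE 0.12) on 129 and -2.20 (SE 0.15) on CAST. In its chromosome 1 locus 6 of 17 genes were higher, where 27.6% of all genes were, with Ncl the clearest and Cab39, a kinase scaffold, higher by 0.64 (SE 0.09). B3gnt7 was the single lower gene there, and with the offsets 5 were higher and 3 lower. Armc9 was not called (-0.20, SE 0.12).

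At the Chen2008-1 locus the +/- clones carry the deletion and the KO clones do not. Trim28, the co-repressor recruited by zinc-finger proteins, had 78844, 88927, 111240, 78957 and 102687 CPM in B4, C4, G2, H2 and H4 and 52417, 65876 and 85046 CPM as the lowest, median and highest +/- value. The groups overlapped, and KO was higher (log2 0.45, SE 0.12, adjusted p = 0.00584). The CAST copy was higher (1.07, SE 0.13) and the 129 copy was not called (0.01, SE 0.11), with a 129 share of 67.5% ± 1.53 (SD, n = 6) in the +/- clones and 49.8% ± 0.622 (SD, n = 5) in KO. Zbtb45, the next panel gene along the chromosome, was higher on CAST (1.07, SE 0.07) and lower on 129 (-0.46, SE 0.06). Its total was higher by 0.15 (SE 0.06, adjusted p = 0.0391), a call lost on leaving out any 1 of B8, C4, E7, G2, H4 or H7 (0.11 to 0.16). Ube2m, the conjugating enzyme for NEDD8, was lower in KO (-0.37, SE 0.07, adjusted p = 0.000537; -0.21 and not called with the offsets), and Zfp446 was not called (0.14, SE 0.08). Of 19 genes of this locus 11 were higher and 3 lower, median 0.30, and with the offsets 9 were higher and 1 lower. The shares over all genes were 27.6% higher and 31.4% lower, and with the offsets 129 and 100 of 430.

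The differences spread over the whole panel. Called genes were found in each of the 23 loci, where a locus is a run of panel genes under 1 Mb apart on 1 chromosome, and 19 of the tested genes could not be placed. The locus on chromosome 9 holds only Gm10052, a processed pseudogene placed there by its symbol. In the order of the panel Gm10052 stands between Cbx5 and Hnrnpa1 of chromosome 15, so its placement is uncertain. The largest groups of lower genes were on chromosome 15 between Ptp4a3 and Ift27 (37 lower and 10 higher of 79) and on chromosome 11 between Ccdc40 and Tex19.1 (24 lower and 7 higher of 51), which holds Slc16a3, Pycr1 and Fasn, where 31.4% of all genes were lower. With the offsets the prevalence of lower genes was gone at both, with 18 lower and 19 higher on chromosome 15 and 14 lower and 15 higher on chromosome 11. On chromosome 11 between 3010026O09Rik and Ppp2ca 14 of 28 genes were higher and 6 lower, and between Wsb1 and Tmem98 7 of 15 were higher and 2 lower, against 12 and 3 in the former and 7 and 4 in the latter with the offsets. The share of higher genes over the panel was 27.6%, and with the offsets 129 of 430. Neighbours often went the same way: of 140 adjacent pairs with both genes called, 100 had the same direction and 40 opposite directions. Among all called genes 124 were higher and 141 lower. The pairs were counted in the fit without the offsets only. Lower genes still stood beside higher ones, as B3gnt7 beside Ncl. In the chromosome 1 locus from Csrp1 to Nr5a2 the leading gene was Camsap2, which binds the minus ends of microtubules, at 775 to 879 CPM in KO and 256 to 510 CPM in the +/- clones (log2 1.05, SE 0.14). All 4 genes of the chromosome 10 locus were higher, led by Jmjd1c, a coactivator related to histone demethylases (0.80, SE 0.13; 0.29 with the offsets), and with the offsets 2 of the 4 were called. Of the genes described, Parp10 shares exonic bases on the same strand with Plec, so their reads cannot be told apart there. Apol6 with Mb, Oplah with Smpd5 and Exosc4, Tspo with Mcat, Lig1 with 6330408A02Rik, Tgm2 with Rprd1b, Csad with Zfp740, Svop with Usp30, Hebp1 with 8430419L09Rik and Gpr19 with 2810454H06Rik overlap on opposite strands, so their reads may be mixed.

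On the X chromosome 8 of 14 genes were higher and 2 lower, with a median of 0.69, and with the offsets 6 were higher and 3 lower. Over all genes 27.6% were higher and 31.4% lower, and with the offsets 129 of 430 were higher and 100 lower. The median 129 share of the X genes was 99.9% or more in each of the 11 clones. Beside Phka1 and Gm9112, Chic1 had 2.27-fold and Rlim, a ubiquitin ligase that activates Xist, 1.43-fold the +/- level. Xist, the RNA that silences an X chromosome, had 166 to 276 CPM in KO and 219 to 471 CPM in the +/- clones and was not called (-0.43, SE 0.20, adjusted p = 0.0729), though it was called lower without D3 (-0.50) and with the offsets (-1.22, adjusted p = 0.000209). Its antisense partner Tsix was lower (-0.55, SE 0.19, adjusted p = 0.0192), a call lost without H2 (-0.42), with upper-quartile scaling (-0.45) and at equal depth (-0.48). Tsix and Xist overlap on opposite strands by 1980 exonic bases, and no source used here states whether counting used strand, which leaves their reads mixed. The X inactivation genes have a median GC content of 42.5%, and 3 of 9 were higher and 2 lower, against 2 higher and 3 lower with the offsets, where Rlim was at -0.03 and not called.

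**Figure D4:**
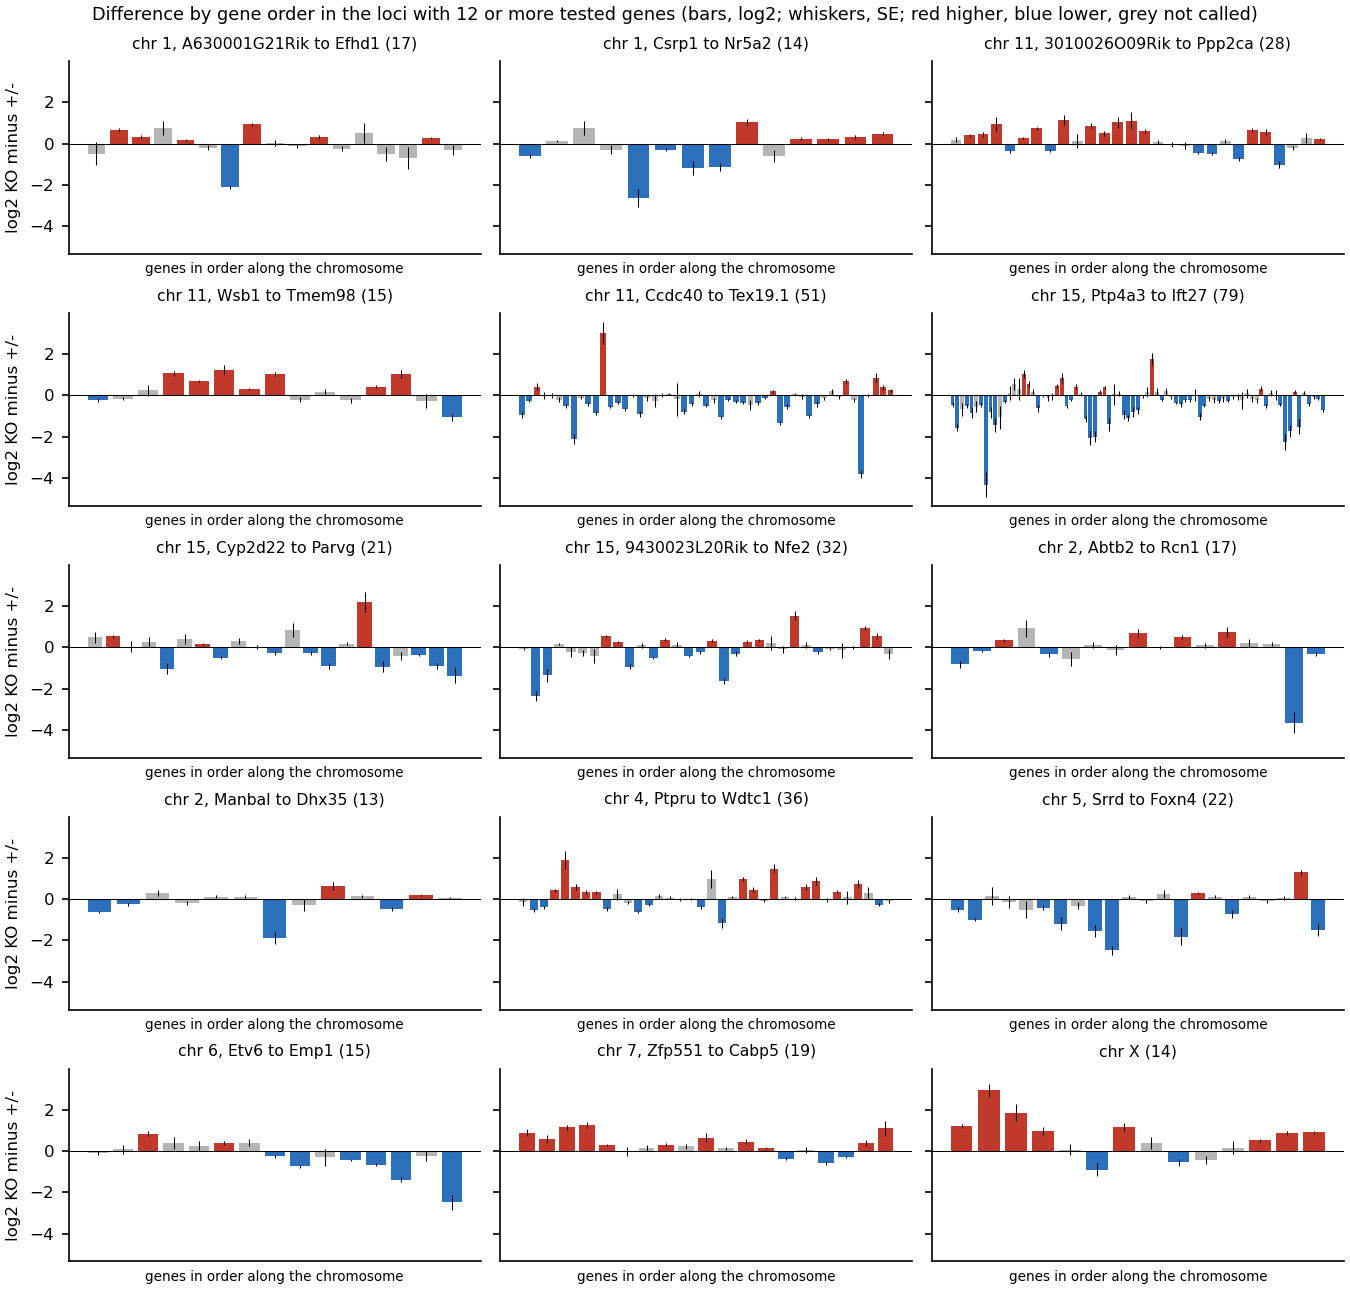
Log2 difference of totals (KO minus +/-) of each tested gene in its order along the chromosome, in the 15 loci with 12 or more tested genes (number in brackets); bars are red when called higher, blue when called lower and grey when not called, and whiskers are standard errors. In this fit, without the GC and length offsets, lower genes prevail in the large loci of chromosomes 11 (Ccdc40 to Tex19.1) and 15 (Ptp4a3 to Ift27), which with the offsets hold 14 lower and 15 higher and 18 lower and 19 higher genes, and higher genes prevail on chromosome 7 and the X.

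Most called differences were estimated in the same direction on both parental copies. The calls rest on the sum of both copies in the same libraries, so this agreement is partly fixed in advance and is no test. Of the 265 called genes 256 were estimated in the direction of the total on both the 129 and the CAST copy, 170 were called on both, 46 on 129 only, 39 on CAST only and 10 on neither. These counts include 10 called X genes, which mostly have few CAST reads, 9 of them called on 129 only and 1 on both copies. Of the 255 called genes outside the X 249 had the direction of the total on both copies. On both copies 169 of the 255 were called, on 129 only 37 and on CAST only 39. Single copies have fewer reads, and the share called was 50.3% on 129 and 49.2% on CAST, or 49.7% and 50.6% outside the X. A test of whether the copies differed unequally, an allele-by-group term with the clone as a block, called 50 of 449 genes (11.1%), 21 with a larger value on 129 (4.68%) and 29 with a larger value on CAST (6.46%). The 449 include 14 X genes, which mostly have too few CAST reads for this test, and none of the 50 is on the X. Of the 50, 43 were also called in the totals. Trim28 (-1.07, SE 0.03) and Zbtb45 (-1.54, SE 0.05) had the smallest p. Both lie in the locus taken as that of Chen2008-1.

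Unequal differences of the copies were also found in other loci. Gprc5a had a log2 difference of -1.49 (SE 0.17) on 129 and -0.30 (SE 0.08) on CAST, and its 129 share was 22% ± 5.75 (SD, n = 5) in KO and 38.6% ± 3.13 (SD, n = 6) in the +/- clones. Gpr19, an orphan receptor of the same locus, went the other way, with 61.3% ± 2.83 against 49.3% ± 2.16 from 129. The total of Gpr19 was lower (-0.24, SE 0.07), a call lost without H2 (-0.17), with upper-quartile scaling (-0.14) and with the offsets (-0.04). The 129 share of Krt8 was 61.4% ± 4.07 in KO and 78.3% ± 2.28 in the +/- clones. Ly6e, Arc and Bend4 had a larger 129 share in KO (69.8% against 59.9%, 85.5% against 79.1% and 53.6% against 43.6%), and Csrp1 and Mgat4b a smaller one (74.0% against 79.2% and 48.7% against 56.4%). Ly6e belongs to a family of near copies, so its reads are uncertain. Slc16a3 had similar values on both copies, -3.89 (SE 0.18) on 129 and -3.77 (SE 0.20) on CAST.

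**Figure D5:**
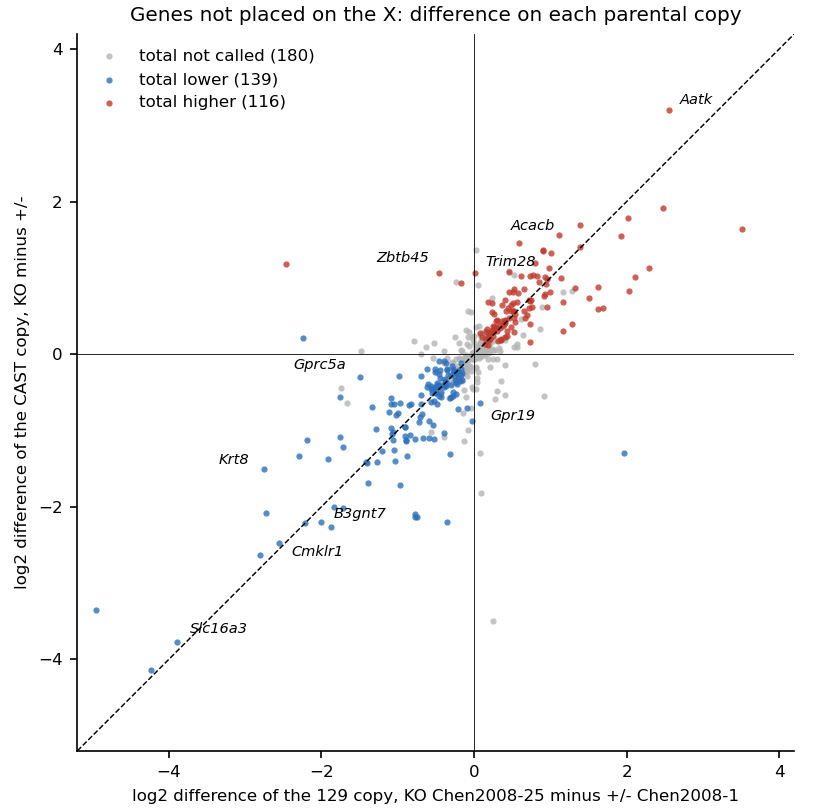
Log2 difference (KO minus +/-) of the CAST copy against that of the 129 copy for 435 genes not placed on the X, 1 point a gene, coloured by the call of the total (116 higher, 139 lower, 180 not called); the dashed line marks equal differences. Most called genes lie near the line, Slc16a3 among them, while Trim28, Zbtb45, Krt8 and Gprc5a lie above it and Gpr19 below it.

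The 3 clones outside the comparison give the same contrast of clone sets with no shared clone, with E6 as a lone sample assumed to vary like the others. D10 had the fewest reads of the 14 clones (135881) and stood apart on their second principal component. The counts below that use the -/+ Chen2008-1 clones thus rest partly on this thin library. Between E6 and the pair of D2 and D10, 25 of 443 genes were called (5.64%), 13 higher (2.93%) and 12 lower (2.71%) in E6, and all 25 were called in the same direction in the KO comparison. Of 260 genes called in the KO comparison and tested here 247 (95%) had the same sign, and of 179 genes not called 122 (68.2%). E6 has 1 intact enhancer copy. Of the 68 genes called and at least 2-fold different in the KO comparison, 67 also passed the read filter over all 14 clones. In levels scaled over the 14 clones, E6 was nearer the KO mean for 58 of the 67. D2 was nearer the +/- mean for 66 and D10 for 56. Slc16a3 had 376 CPM in E6, 1341 in D2 and 4475 in D10, so D2 was below every +/- clone. E6 was nearer the +/- clones for 9 of the 67, among them B3gnt7, Aatk, Apol6, Scube1 and St8sia2, and Krt8 (240 CPM in E6) was not. Within Chen2008-1, 0 of 448 genes were called between -/+ and +/- clones by edgeR (13 at an unadjusted p under 0.05) and 0 by DESeq2.

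A part of the panel showed little difference. Of the 184 genes not called 112 had a 95% interval within 1.5-fold in both directions and 54 within 1.25-fold. The 10 of narrowest interval had differences from -0.11 to 0.11 (log2), with interval bounds from -0.22 to 0.23, at mean levels of 1427 to 11544 CPM in the +/- clones. With the GC and length offsets the same 10 ran from -0.04 to 0.31 and 8 were called.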

How the data were processed

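The deposited files give, per the file headers, a 129 and a CAST column of counts per clone (whole numbers, not normalized) for 472 panel rows. Between 78.5% and 88.6% of counts from 1 to 19 were even, so reads are not independent molecules. The submitters' processing notes name build mm9; aligner, allele assignment and counting rules are not given in the sources used here. Genotypes come from the deposited genotype table, whose other column entries are text, per the file headers. A second row with the counts of Tsix was left out.

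Counts were summed over copies and tested in R 4.3.3 with edgeR 4.0.16 (quasi-likelihood, TMM factors, mean of at least 10 reads per clone over the 11 clones, Benjamini-Hochberg adjustment over all genes tested, threshold 0.05, 95% intervals). CPM values use TMM-adjusted library sizes, and the enrichment by probes and the need for a strain difference in the read bar comparing levels between genes. DESeq2 1.42.0, limma 3.58.1, other scalings, filters and left-out clones were tried as alternatives. Offsets came from natural splines of each clone's deviations on GC content and log2 length of the longest GENCODE transcript, matched by symbol (428) or older symbol (23). The scripts were tested on simulated data. The clones, gene lists and genes at the deletion loci were chosen with earlier results of these data known, so lists are described by counts without a test of their own. Genes were named by rule: the 15 of smallest p and 10 of largest difference in each direction, up to 4 per list, 1 per locus with 3 or more calls, 7 genes at the deletion loci and the 10 of smallest allele-by-group p; the 10 narrowest uncalled genes are given as a range, and Krt18, Tex19.1, Tex19.2 and Xist were added after their values were seen. 1 gene that this rule names is not reported here.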

Additional observations from a re-analysis of the deposited data

Results flagged for a closer look

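Single clones stood apart from the rest of their group in 12 of 222 groups of named genes tested, where chance alone marks about 1 in 20. In the KO clones, H2 was high for B3gnt7 (499 CPM, others 431 to 447), Dmrtc1b (156, others 86.4 to 102), Xkr8 (633, others 537 to 560) and Lypd2 (3.23, others 0). G2 was low for Cbx5 (3118, others 3767 to 3970), C4 high for Tonsl (2001, others 1855 to 1881) and B4 high for Zfp329 (219, others 156 to 173). In the +/- clones, H7 was high for Atf7 (56.6, others 33.7 to 38.8) and low for Zfp446 (798, others 995 to 1104). D3 was high for Krt18 (95.6, others 44.2 to 63.2) and low for linc1329 (1395, others 1634 to 1758), and E3 was low for Eif4e2 (6588, others 7077 to 7363).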

How the results depend on the processing

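The count of 265 called genes lay between 221 and 278 under all alternatives, 248 to 278 on leaving out 1 clone each, 226 on the 129 and 221 on the CAST column alone, 273 with DESeq2 and 229 with GC and length offsets, a choice made after seeing the data like that of leaving out H7 and G2 (278). Of the 265, 211 kept call and direction under every other alternative on totals that tested them, and 141 under these and the offsets. The 50 allele-by-group calls ran from 39 to 54 on leaving out 1 clone and fell to 29 with limma on log2 ratios; the cause was not tested. Reversed estimates of named genes were Zbtb45 (-0.46), Gpr19 (0.08), Armc9 (0.02) and Zfp446 (-0.06) on the 129 column alone, Krt18 (0.21) on the CAST column alone, and Canx (-0.09), Rlim (-0.03) and Ly6e (0.09) with the offsets; only Zbtb45 was called there. Without H2 the value of Lypd2 is not interpretable, since all other KO clones are listed at 0. No paired analysis was possible because clones carry names and share no replicate numbers. Depth limits the 113 genes with the lowest levels (median 49.1 CPM).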
